A study of Homo sapiens with 6 samples.

Results

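The expression of 40 genes of the apoptosis and death receptor machinery was examined in RNA-Seq of HCC1806/HM3 cells with or without knockdown of MSLN. The 40 genes were given by name (the BCL2 family, the inhibitor of apoptosis proteins or IAPs, caspases, death receptors and their adaptors), not by a threshold on measured values. The list was nevertheless written with earlier results of these data known. All 40 were among the 17860 genes listed in the deposited table, had a value in each of the 6 samples and were among the 14552 genes that passed the filter on low counts and were tested. HCC1806 is a human breast squamous carcinoma line, and HM3 is its derivative isolated from liver metastases after 3 rounds of injection into the mammary fat pad of nude mice. The cells carried a lentiviral control shRNA (shNC, labelled Control, 3 samples) or a lentiviral shRNA against MSLN (shMSLN, labelled MSLN knockdown, 3 samples), and both lines had been selected with G418 for stable integration. The sources used here do not give which of the shRNAs designed against MSLN was used for the RNA-Seq, or whether the 3 samples of a group were separate cultures, so the p-values measure the spread between these samples, which may be technical.

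Apoptosis is started by an intrinsic and an extrinsic route. In the intrinsic route, BH3-only proteins neutralise the anti-apoptotic members of the BCL2 family or act directly on BAX and BAK1, which open pores in the mitochondrial outer membrane and release cytochrome c; cytochrome c, APAF1 and CASP9 then form the apoptosome. In the extrinsic route, ligands such as TRAIL (TNFSF10) cluster death receptors that recruit FADD and CASP8, a step held back by FLIP (CFLAR), while XIAP blocks caspases and the cellular IAPs (BIRC2 and BIRC3) place ubiquitin on RIPK1 at the TNF receptor and steer it toward NF-kB signaling. By these textbook roles, 24 of the genes were sorted as pro-apoptotic, 13 as anti-apoptotic, and TNFRSF1A, TRADD and RIPK1, which serve both survival and death, as 3 genes of dual role.

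Depth was similar across samples, with 17507837 to 18512135 estimated counts each. MSLN, the targeted gene (chromosome 16, 760762 to 768865, GRCh38), was at 231, 226 and 228 CPM (counts scaled to library size) in shNC and at 37.1, 36.2 and 35.4 CPM in shMSLN, 15.9% of the control. The epithelial and squamous markers EPCAM (348 to 364 TPM over the 6 samples, TPM being a transcript level scaled for length and depth), KRT5 (mean of 2228 TPM in shNC and 1759 TPM in shMSLN) and TP63 (186 and 162.5 TPM) were present. Of the 9 such markers, 2 were called higher in shMSLN (CDH1 and KRT17) and 4 lower (KRT5, TP63, KRT18 and KRT6A, the last from 138 ± 20.5 to 69.1 ± 0.24 TPM), and KRT14 was at 4.58 to 5.92 TPM. Of the hormone and growth factor receptors, PGR was listed at 0.01 TPM or less, with no value in shMSLN 1, ERBB2 was at 70.0 to 77.2 TPM, and ESR1 was at 6.56 ± 0.37 TPM in shNC and 9.39 ± 0.17 TPM in shMSLN. Of the markers of other cells, those of endothelium summed to 2.39 to 2.83 TPM in shNC and 2.46 to 2.86 TPM in shMSLN. The listed hepatocyte markers summed to at most 0.37 TPM in any sample. Those of leukocytes summed to 35.6 to 40.1 TPM in shNC and 35.3 to 38.6 TPM in shMSLN, mostly through CD68 (31.6 ± 2.11 and 29.6 ± 1.68 TPM). The fibroblast markers summed to 60.4 to 63.9 TPM in shNC and 118 to 121 TPM in shMSLN, through LUM (47.2 to 51.0 and 104 to 107 TPM). Of the other 4, COL1A1 was at 11.2 to 12.1 TPM, PDGFRB at 1.0 to 1.47 TPM and COL1A2 at 0.19 TPM or less over the samples, and DCN was called higher (0.34 ± 0.064 and 0.68 ± 0.11 TPM). The part of these marker differences in the results below was not tested.

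Differences between shMSLN and shNC were modest for most of these genes, with large ones in a few. BIRC3, a cellular IAP, fell to 40.7% of its control level, BIK, a BH3-only protein, fell to 60.5%, and BCL2, the founding survival member of its family, rose by 64.9%. At an adjusted p below 0.05 (edgeR quasi-likelihood test, Benjamini-Hochberg over all tested genes), 19 of 40 members differed, or 47.5%, against 34.6% of all tested genes. Of the 40 members, 5 were called higher in shMSLN, against 16.6% of all tested genes, and 14 were called lower, against 18.0%. With limma on log2(TPM + 1) the split was 6 higher and 10 lower. These shares are a description without a test, since the members were chosen with earlier results of these data known. The choice of scaling moved the split of all genes as well, with 47.9% of the called genes higher in edgeR, 57.5% with upper-quartile scaling and 61.0% with limma on log2(TPM + 1). Without shMSLN replicate 2, 3 members were called higher. The values of the groups did not overlap for 26 of 40 members, against 46.2% of all tested genes. The log2 fold change lay within 0.5 of zero for 37 of 40 members, and among called genes its median absolute size was 0.27 for the members and 0.29 for all genes. The cells were measured in bulk, so fewer expressing cells and less RNA per cell cannot be told apart.

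**Figure D1:**
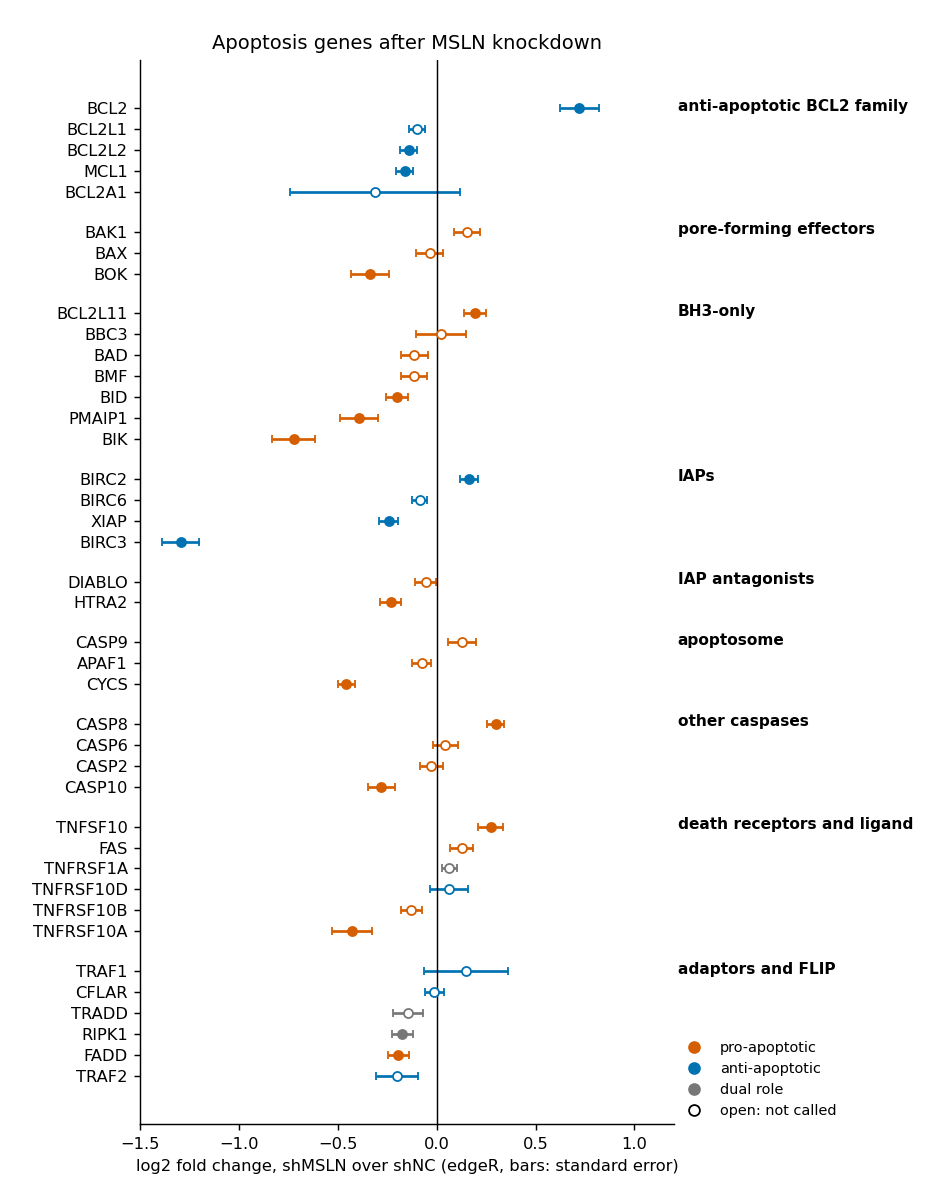
Log2 fold change of CPM in shMSLN over shNC for each of the 40 members (horizontal axis), grouped by role, with edgeR standard errors as bars; color gives the pro-apoptotic, anti-apoptotic or dual role, and open circles were not called (adjusted p of 0.05 or above). BIRC3 at -1.30, BIK at -0.72 and BCL2 at 0.72 lie outside the range of -0.5 to 0.5 that holds the other 37 members.

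Both directions were found on each side of the balance. Of 24 pro-apoptotic members, 3 were higher, 9 were lower and 12 were not called, with a median log2 fold change of -0.10 and a range from -0.72 to 0.30. Of 13 anti-apoptotic members, 2 were higher, 4 were lower and 7 were not called, with a median of -0.10 and a range from -1.30 to 0.72. The median over all tested genes was 0.0019 in edgeR and 0.031 with upper-quartile scaling, which gave medians of -0.07 for both sides.

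The IAPs held the largest fall. BIRC3 (cIAP2) and BIRC2 (cIAP1) are ubiquitin ligases encoded by neighbouring genes, on chromosome 11 at 102317450 to 102339403 and 102347211 to 102378670 (GENCODE release 29 on GRCh38), with 7.8 kb between them. BIRC3 was at 34.5, 45.5 and 36.8 CPM in shNC and at 15.3, 16.7 and 15.5 CPM in shMSLN. All shMSLN samples lay below all shNC samples, and the control samples were spread more widely (38.9 ± 5.76 CPM against 15.8 ± 0.77 CPM, SD, n = 3 each). The log2 fold change was -1.30 (SE 0.094, edgeR adjusted p = 9.76e-08). BIRC2 moved in the other direction and was at 146 to 166 CPM in shNC and 172 to 179 CPM in shMSLN (log2 fold change 0.16, SE 0.046, edgeR adjusted p = 0.0120), a call that was lost without shMSLN replicate 2 (0.15, adjusted p = 0.0652). Within each sample, the log2 ratio of BIRC3 to BIRC2 was -2.08, -1.87 and -2.09 in shNC and -3.49, -3.42 and -3.49 in shMSLN, a difference of -1.45. The ratios of such pairs are given as a description without a test, since the pairs were chosen with results of these data known.

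The sequences upstream of this pair of neighbours are shown because the genes lie side by side and moved apart. Each is the stretch from 250 to 51 bases before a RefSeq transcript start on GRCh38.p14, plus strand. It is chr11:102317234-102317433 for BIRC3 and chr11:102346964-102347163 for BIRC2, with matches to the NF-kB consensus on either strand in capitals. BIRC3 had 1 window around a listed start and BIRC2 had 2, of which the one with the lower coordinates is shown.
BIRC3: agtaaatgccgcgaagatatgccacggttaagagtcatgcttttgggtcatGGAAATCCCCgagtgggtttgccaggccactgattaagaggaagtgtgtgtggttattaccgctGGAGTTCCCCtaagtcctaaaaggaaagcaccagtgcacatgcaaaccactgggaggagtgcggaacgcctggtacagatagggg
BIRC2: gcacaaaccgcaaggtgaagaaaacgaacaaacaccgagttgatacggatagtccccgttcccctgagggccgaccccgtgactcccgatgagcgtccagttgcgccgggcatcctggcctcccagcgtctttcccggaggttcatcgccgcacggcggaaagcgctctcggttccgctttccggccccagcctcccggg
The BIRC3 stretch held 2 matches, which began 199 and 135 bases before the start, and the BIRC2 stretch held 0. In the RefSeq promoter table, with windows from 250 bases before to 50 bases after a start, 32 of the 40 members were found, with 60 windows. The consensus was present in 11.3% of all 35116 windows. It was in 1 or more windows of 6 of the 32 members (BIRC3, BMF, BIRC6, CASP2, FAS and CFLAR). A member can have more than 1 window, so a count of members is not comparable with a share of windows. Of these 6, BIRC3 was called and the other 5 were not, with log2 fold changes from -0.12 for BMF to 0.13 for FAS. A match describes the letters only. The letters of the TATA box (TATAAA, either strand) were present in 11.5% of all windows. Among the members they were in windows of BCL2L1, BCL2A1, CASP8, TNFSF10 and RIPK1, again a count of genes and not of windows. These matches began 31 bases before the start in TNFSF10, 30 in RIPK1, 70 in BCL2A1, 139 in CASP8, and 208 and 125 in BCL2L1.

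The other IAPs changed less. XIAP, which binds and blocks caspases directly, fell from 83.2 ± 3.88 to 70.3 ± 1.17 CPM (log2 fold change -0.24, SE 0.047, edgeR adjusted p = 0.00101). BIRC6, a very large ubiquitin ligase of the family, had a log2 fold change of -0.09 (edgeR adjusted p = 0.0854). Of the proteins that relieve IAP inhibition after their release from mitochondria, HTRA2 fell by 14.9% (edgeR adjusted p = 0.00360), whereas DIABLO (Smac) had a log2 fold change of -0.06 (edgeR adjusted p = 0.420). HTRA2 overlaps AUP1 on the opposite strand (181 TPM in shNC and 186 TPM in shMSLN), and whether counting used strand is not given in the sources used here.

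In the anti-apoptotic BCL2 family, BCL2 was called higher, MCL1 and BCL2L2 were called lower, and BCL2L1 and BCL2A1 were not called. BCL2 (chromosome 18, 63123346 to 63320128) was at 13.4, 18.7 and 14.6 CPM in shNC and at 24.6, 27.4 and 25.1 CPM in shMSLN. The groups did not overlap, and replicate 2 was the highest in both. The rise was 0.72 on the log2 scale (SE 0.099, edgeR adjusted p = 5.51e-05). MCL1, a short-lived survival protein, fell by 10.6% (266 ± 15.6 to 238 ± 3.40 CPM, edgeR adjusted p = 0.00901), and BCL2L2 (BCL-w) fell by 9.34% (edgeR adjusted p = 0.0218). BCL2L1 (BCL-xL) was at 231 to 244 CPM in shNC and 217 to 231 CPM in shMSLN, which was not called (log2 fold change -0.10, edgeR adjusted p = 0.0593), although it was called lower without shNC replicate 2 (adjusted p = 0.0237), without shMSLN replicate 1 (adjusted p = 0.0392) and with a replicate block (adjusted p = 0.0257). BCL2A1 had 5 to 13 reads in each sample, too few to show a difference of its size (log2 fold change -0.31, SE 0.43). The call of MCL1 was lost with limma on log2(TPM + 1) (adjusted p = 0.115), and that of BCL2L2 in 8 of 17 alternatives, among them DESeq2 (adjusted p = 0.0844), upper-quartile scaling (adjusted p = 0.0610) and leaving out shNC replicate 3 or any 1 of the shMSLN samples (adjusted p from 0.0507 to 0.0804). BCL2L2 also overlaps the read-through gene BCL2L2-PABPN1 on the same strand (2.68 TPM in shNC and 1.52 TPM in shMSLN), so its reads are uncertain.

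**Figure D2:**
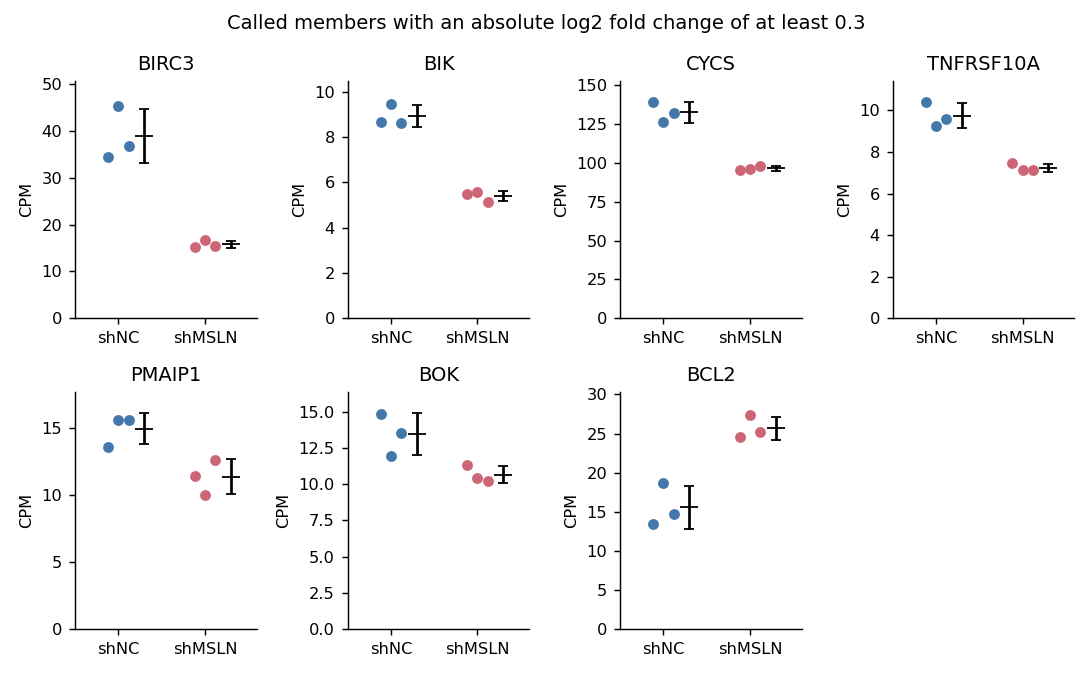
CPM of the 7 called members with an absolute log2 fold change of at least 0.3, by group (blue, shNC; red, shMSLN; points are samples, lines are the mean and SD, n = 3, axes start at 0). In each panel the shMSLN samples lie wholly above (BCL2) or wholly below (BIRC3, BIK, CYCS, TNFRSF10A, PMAIP1 and BOK) the shNC samples.

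Among the BH3-only genes, the sensors that start the intrinsic route, 3 of 7 fell, 1 rose and 3 were not called. BIK was at 8.65, 9.48 and 8.63 CPM in shNC and at 5.48, 5.55 and 5.14 CPM in shMSLN. PMAIP1 (NOXA), which binds MCL1, was at 13.6, 15.6 and 15.6 CPM in shNC and at 11.4, 10.0 and 12.7 CPM in shMSLN. Neither gene overlapped between groups, with a wide gap for BIK and a narrow one for PMAIP1, where shMSLN 3 came within 1 CPM of shNC 1. The log2 fold changes were -0.72 for BIK (SE 0.110, edgeR adjusted p = 0.000147) and -0.39 for PMAIP1 (SE 0.097, edgeR adjusted p = 0.00572). BID, which CASP8 cleaves to link the extrinsic to the intrinsic route, fell by 13.1% (edgeR adjusted p = 0.0110). BCL2L11 (BIM), a potent activator of BAX and BAK1, rose from 36.2 ± 1.61 to 41.4 ± 1.5 CPM (log2 fold change 0.19, SE 0.055, edgeR adjusted p = 0.0143). The call of BID was lost without shMSLN replicate 2 (-0.17, adjusted p = 0.0725), and that of BCL2L11 without shMSLN replicate 2 (0.19, adjusted p = 0.0580) or 3 (0.17, adjusted p = 0.0678). BAD, BMF and BBC3 (PUMA) had log2 fold changes of -0.11, -0.12 and 0.02 and were not called.

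Of the pore-forming effectors, BOK alone was called. BOK was at 14.9, 12 and 13.6 CPM in shNC and at 11.3, 10.4 and 10.2 CPM in shMSLN. The highest shMSLN value lay just below the lowest shNC value (log2 fold change -0.34, SE 0.097, edgeR adjusted p = 0.0143), and the call was lost without shMSLN replicate 2 (-0.32, adjusted p = 0.0557) or 3 (-0.31, adjusted p = 0.0613). BAX was at 36.4 ± 3.77 CPM in shNC and 35.5 ± 0.86 CPM in shMSLN (edgeR adjusted p = 0.722), and BAK1 was at 21.7 ± 1.30 and 24.2 ± 0.57 CPM (edgeR adjusted p = 0.0844). BAK1 was called higher with upper-quartile scaling (0.18, adjusted p = 0.0420) and with limma on log2(TPM + 1) (0.19, adjusted p = 0.0465).

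CYCS, which encodes cytochrome c of the respiratory chain and the apoptosome, had the fall with the smallest standard error relative to its size among the members after BIRC3. It was at 139, 126 and 132 CPM in shNC and at 95.2, 96.1 and 97.9 CPM in shMSLN. The shMSLN samples were close together and well below the controls (log2 fold change -0.46, SE 0.044, edgeR adjusted p = 1.81e-06). The annotation lists 40 pseudogenes of CYCS and none of them is in the table, so how reads shared with such copies were counted is uncertain. Its partners in the apoptosome were not called, with log2 fold changes of -0.08 for APAF1, the scaffold (edgeR adjusted p = 0.250), and 0.13 for CASP9, the initiator caspase bound to it (edgeR adjusted p = 0.169).

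CASP8 and CASP10, related initiator caspases of the extrinsic route that lie 4.0 kb apart on chromosome 2, moved in opposite directions. CASP8 (201233443 to 201287711) was at 63.2 to 65.1 CPM in shNC and rose to between 77.7 and 81.0 CPM in shMSLN (log2 fold change 0.298, just under the 0.3 from which values of every sample are given, SE 0.044, edgeR adjusted p = 0.000103). CASP10 (201182881 to 201229406) was at 30.3 to 36.2 CPM in shNC and fell to between 26.9 and 28.2 CPM (log2 fold change -0.28, SE 0.068, edgeR adjusted p = 0.00517), although this call was lost with limma on log2(TPM + 1) (-0.19, adjusted p = 0.119). The within-sample log2 ratio of CASP10 to CASP8 was -1.06, -0.82 and -0.92 in shNC and -1.53, -1.48 and -1.52 in shMSLN, without overlap (difference -0.58). CFLAR, the inactive CASP8 relative that lies 56.8 kb from it on the far side of CASP10, was not called (157 ± 12.6 and 155 ± 0.49 CPM, log2 fold change -0.01, edgeR adjusted p = 0.876, above 0 with upper-quartile scaling and limma on TPM). Its log2 ratio to CASP8 was 1.18, 1.39 and 1.28 in shNC and 1.0, 1.0 and 0.93 in shMSLN, again without overlap (difference -0.31). CASP2 and CASP6 had log2 fold changes of -0.03 and 0.04 and were not called, and CASP2 was at 0.003 with upper-quartile scaling and 0.002 with limma on log2(TPM + 1).

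**Figure D3:**
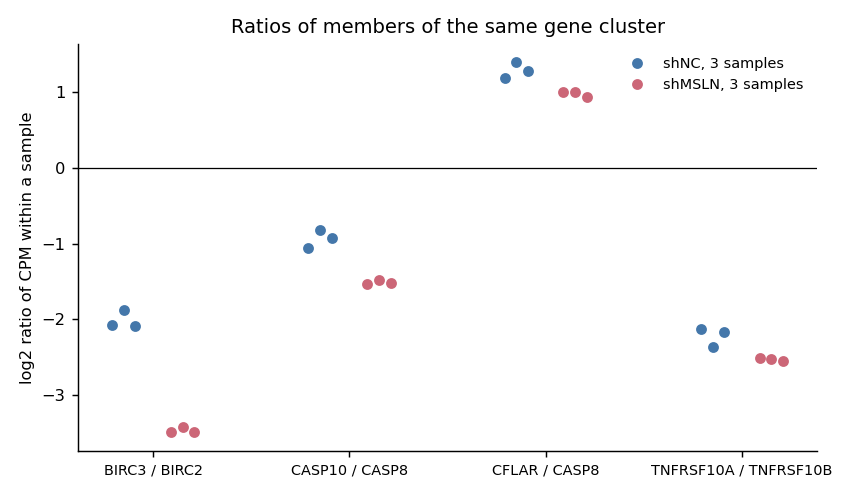
Log2 ratio of CPM within each sample (vertical axis) for 4 pairs of members of the same gene cluster; points are samples (blue, shNC; red, shMSLN). For each pair drawn the 3 shMSLN samples lie below the 3 shNC samples, most widely for BIRC3 over BIRC2 (-3.47 ± 0.04 against -2.01 ± 0.13, SD). The direction depends on which gene is the numerator. TNFRSF10D over TNFRSF10A, which is not drawn, rose from 0.66 ± 0.24 in shNC to 1.16 ± 0.015 in shMSLN.

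Among the death receptors and their ligand, TRAIL rose and one of its receptors fell. TNFSF10 (TRAIL) was at 173 to 222 CPM in shNC and at 241 to 243 CPM in shMSLN, tightly grouped in shMSLN and spread in shNC (log2 fold change 0.27, SE 0.065, edgeR adjusted p = 0.00483). Its size moved with the control samples, at 0.17 without shNC replicate 1 and 0.35 without shNC replicate 2, and the call was kept. TNFRSF10A (DR4), a death-inducing TRAIL receptor, was at 10.4, 9.26 and 9.57 CPM in shNC and at 7.47, 7.12 and 7.12 CPM in shMSLN. The groups did not overlap (log2 fold change -0.43, SE 0.101, edgeR adjusted p = 0.00423). TNFRSF10B (DR5), the other death-inducing receptor, was more abundant, at 45.6 ± 2.41 and 41.7 ± 0.95 CPM, and was not called (log2 fold change -0.13, edgeR adjusted p = 0.0778). TNFRSF10D (DcR2), a decoy that binds TRAIL without a working death domain, had a log2 fold change of 0.06 (edgeR adjusted p = 0.650). The log2 ratio of DR4 to DR5 was -2.23 ± 0.13 in shNC and -2.53 ± 0.02 in shMSLN, and that of DcR2 to DR4 rose from 0.44, 0.62 and 0.92 to 1.15, 1.18 and 1.15. FAS had a log2 fold change of 0.13 (edgeR adjusted p = 0.115), although it overlaps ACTA2 on the opposite strand, which was at 11.1 TPM in shNC and 16.4 TPM in shMSLN. TNFRSF1A, the main TNF receptor, was at 140 ± 1.74 and 146 ± 3.40 CPM and was not called (edgeR adjusted p = 0.221).

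Of the adaptors, FADD, which joins death receptors to CASP8, fell by 12.6% (54.9 ± 2.98 to 48.0 ± 1.63 CPM, edgeR adjusted p = 0.0109), and RIPK1, the kinase at the branch between survival and death, fell by 11.3% (37.3 ± 0.37 to 33.0 ± 1.11 CPM, edgeR adjusted p = 0.0202). The call of FADD was lost without shMSLN replicate 3 (adjusted p = 0.0653). That of RIPK1 was lost in 5 of 17 alternatives, among them DESeq2 (adjusted p = 0.0864), limma on log2(TPM + 1) (adjusted p = 0.108) and leaving out shNC replicate 3 (adjusted p = 0.0519) or shMSLN replicate 3 (adjusted p = 0.102). TRADD and TRAF2, which build the TNF receptor complex and bring the cellular IAPs to it, had log2 fold changes of -0.15 and -0.20, were not called, and overlapped between groups. TRAF2 was called lower without shMSLN replicate 1 (-0.34, adjusted p = 0.0295) and with a replicate block (adjusted p = 0.0182), and was at -0.08 without shNC replicate 1. TRAF1 was scarce, with 32 to 46 reads a sample (log2 fold change 0.15, SE 0.21).

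Levels were compared between genes in TPM, which are scaled for transcript length. In shNC, TNFSF10 (238 ± 34.4 TPM), BCL2L1 (210 ± 1.6 TPM), MCL1 (152 ± 13.2 TPM), TNFRSF1A (141 ± 3.09 TPM), BIRC2 (102 ± 8.77 TPM) and BAX (97.3 ± 8.93 TPM) were the most abundant. The samples overlapped between TNFSF10 and BCL2L1, between MCL1 and TNFRSF1A and between BIRC2 and BAX, so the order within those pairs is not beyond the spread. BCL2 stood at 5.39 ± 1.1 TPM in shNC and 8.95 ± 0.49 TPM in shMSLN, and BIRC3 at 13.2 ± 2.08 and 5.31 ± 0.40 TPM. BIRC3 was thus the least abundant of the 4 IAPs among the members, and of the anti-apoptotic BCL2 family only BCL2A1 (1.54 ± 0.24 TPM in shNC) was below BCL2.

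**Figure D4:**
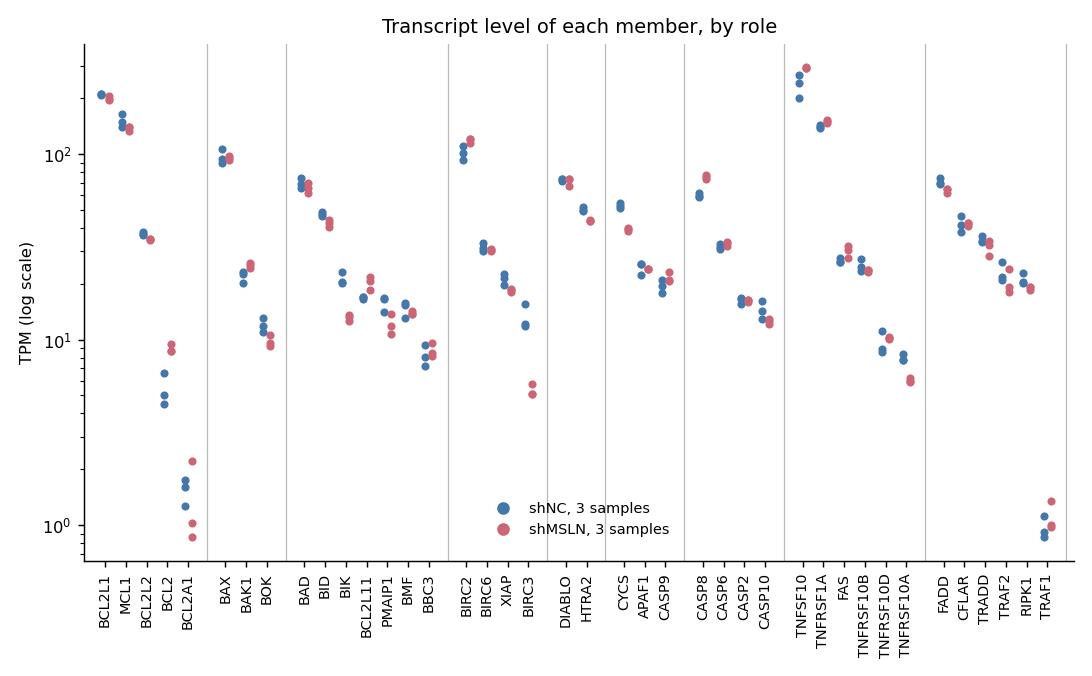
TPM of the 40 members in each sample on a log axis, ordered by level within each role (blue, shNC; red, shMSLN; points are samples). BCL2 and BIRC3 are separated between groups but lie far below BCL2L1, MCL1 and BIRC2.

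The weight of each change within its group was given by its share of the summed TPM. BCL2 made up 1.32% ± 0.22 of the transcripts of the anti-apoptotic BCL2 family in shNC and 2.33% ± 0.11 in shMSLN, while BCL2L1 held 51.8% and 52.3% and MCL1 37.3% and 36.0%. The summed TPM of this family was 406 ± 13.4 in shNC and 384 ± 3.15 in shMSLN, so the sum was lower although BCL2 rose. With limma on log2(TPM + 1), BCL2L1, MCL1 and BCL2L2 were each not called (adjusted p = 0.166, 0.115 and 0.0971). In the IAPs, the share of BIRC3 went from 7.85% ± 0.69 to 3.07% ± 0.20 and that of BIRC2 from 60.6% ± 0.49 to 68.7% ± 0.35, with a sum of 168 ± 13.6 and 173 ± 3.88 TPM, a difference smaller than the spread of the controls. In the BH3-only group, BIK went from 10.9% ± 0.73 to 7.47% ± 0.49 and BCL2L11 from 8.67% ± 0.20 to 11.5% ± 1.25, and the sum from 194 ± 2.95 to 176 ± 5.45 TPM.

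**Figure D5:**
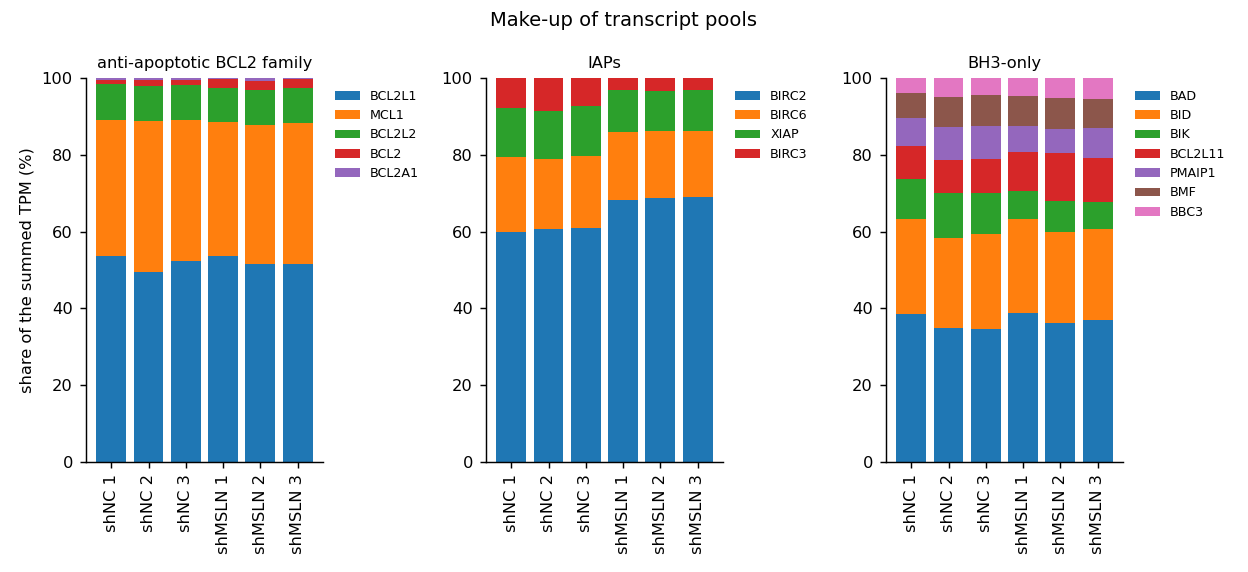
Share of the summed TPM (vertical axis, percent) taken by each gene of the anti-apoptotic BCL2 family, the IAPs and the BH3-only group, with 1 stacked bar for each sample. The BIRC3 share is 7.19% to 8.56% in the shNC bars and 2.90% to 3.29% in the shMSLN bars, and BCL2L1 and MCL1 fill most of the first group in every bar.

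Summed over the sides, the 24 pro-apoptotic genes were at 1037 ± 31.0 TPM in shNC and 1061 ± 7.43 TPM in shMSLN, and the 13 anti-apoptotic genes at 649.5 ± 29.2 and 631 ± 2.08 TPM. The ratio of anti-apoptotic to pro-apoptotic TPM was 0.618, 0.636 and 0.624 in shNC and 0.597, 0.600 and 0.589 in shMSLN. The groups did not overlap, with means of 0.626 ± 0.0094 and 0.595 ± 0.0060 (SD, n = 3 each). The separation rested on TNFSF10, which went from 238 to 293 TPM. Without it in the sums, an alternative added after seeing the data, the ratio was 0.772, 0.850 and 0.816 in shNC and 0.824, 0.832 and 0.811 in shMSLN, and the groups overlapped. On the TPM scale, the median log2 fold change with limma on log2(TPM + 1) was -0.05 for the pro-apoptotic and -0.06 for the anti-apoptotic members.

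A list of 38 other genes of the pathway gave the setting. Of 34 tested, 11 were called (32.4%, against 34.6% of all genes), 4 higher and 7 lower, with a median log2 fold change of -0.02. TNFAIP3 (A20), which edits ubiquitin chains at the TNF receptor complex, was at 31.5, 35.0 and 33.9 CPM in shNC and at 17.2, 18.3 and 16.7 CPM in shMSLN. It was well separated between the groups (log2 fold change -0.94, SE 0.067, edgeR adjusted p = 7.74e-08). Of 10 TNF complex modulators and necroptosis genes, 4 were called and all 4 were lower, namely TNFAIP3, the deubiquitinase CYLD (log2 fold change -0.44), the adaptor TRAF3 (-0.28) and MLKL, the executor of necroptosis (-0.31). The 4 genes called higher were BCL2L13, BNIP3 and BNIP3L, which are known for the clearance of mitochondria, and BIRC5 (survivin), with log2 fold changes of 0.24, 0.31, 0.26 and 0.30. Other than TNFAIP3, these genes were named after their values were seen.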

How the data were processed

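RNA-Seq of HCC1806/HM3 cells (3 shNC and 3 shMSLN samples, grouped by their titles) was analysed. Poly(A) RNA libraries were prepared and sequenced by BGI. The authors deposited 1 table with estimated counts, TPM and FPKM of each sample. The submitters' processing notes name GRCh38.p13, while the aligner, the quantifier and the use of strand are not given in the sources used here. The deposited estimated counts are not scaled, and the authors' TPM and FPKM are scaled for length and depth; FPKM was not used. The shMSLN columns lack a value for 1287 genes, none of them a member, and these were left out, which leaves 16573 genes. Above 100 reads, 47.7% and 47.8% of the deposited estimated counts were exact whole numbers in shMSLN 2 and 3, against 3.36% to 7.02% in the other samples. Within a group, at most 0.694% of genes had exactly equal estimated counts in any pair of samples. The squared difference between 2 samples, relative to that of counting noise alone and averaged over genes, was 1.285 for shMSLN 2 and 3. It was 2.255 and 2.658 for the other shMSLN pairs and 2.389 to 5.879 for the shNC pairs. What shMSLN 2 and 3 share was not tested.

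After rounding of the estimated counts, the groups were compared by the quasi-likelihood test of edgeR 4.0.16 (R 4.3.3), with TMM factors, filterByExpr, no covariate, Benjamini-Hochberg adjustment over 14552 genes and a threshold of 0.05. CPM use TMM-scaled library sizes. Alternatives were RLE and upper-quartile scaling, other count filters (a minimum of 1 over all samples or 10 in every sample), DESeq2 1.42.0, limma-voom 3.58.1, robust estimation, limma on log2(TPM + 1) and log2(TPM + 0.1), a replicate block, leaving out each sample, and missing values as 0. The edgeR, DESeq2 and voom fits were run on simulated counts in which 200 genes had a fold change of 2. They recovered 94.5% to 99.5% of these, with 6 to 8 false calls. Most members changed by less, and the simulated spread was the same in both groups. The simulation thus does not measure the error of the calls given here. Members called with an absolute log2 fold change of at least 0.3 are given in every sample, and other pathway genes are named from 0.5 upward; a few more, set by name whatever their values, are not reported here, and BCL2L13, BNIP3, BNIP3L, BIRC5, CYLD, TRAF3 and MLKL are outside this rule. The members, lists and roles were chosen with earlier results of these data known. Gene positions are those of GENCODE release 29, and promoter sequences are from RefSeq on GRCh38.p14. Protein sequences were not used here.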

Additional observations from a re-analysis of the deposited data

How the results depend on the processing

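Of the 19 members called, 10 kept call and direction under all 17 alternatives (BCL2, BIK, PMAIP1, BIRC3, XIAP, HTRA2, CYCS, CASP8, TNFRSF10A and TNFSF10), 9 lost the call under at least 1 and 0 reversed. The count of members called was 17 with DESeq2 and 16 with limma on TPM. Leaving out 1 sample gave 14 (without shMSLN replicate 2 or 3) to 22 (without shNC replicate 1) members called, 3 (without shMSLN replicate 2) to 5 called higher and 10 to 17 called lower, and 3695 to 5399 genes called in all. The cause was not tested. Of the members not called, 6 were called under at least 1 alternative: BCL2L1, BAK1 and TRAF2 as given above, and BMF (-0.184), BIRC6 (-0.11) and APAF1 (-0.122) without shNC replicate 1. Another 6 changed sign. CASP2 was at 0.003 with upper-quartile scaling and 0.002 and 0.003 with limma on log2(TPM + 1) and log2(TPM + 0.1), and CFLAR at 0.017, 0.003 and 0.003. Leaving out 1 sample gave from -0.056 (without shNC replicate 1) to 0.002 (without shNC replicate 3) for CASP2, -0.073 to 0.044 for CFLAR (without shNC replicate 1 or 2), -0.104 to 0.044 for BAX (without shNC replicate 2 or 1), -0.046 to 0.088 for BBC3 (without shNC replicate 1 or 2; -0.015 without shMSLN replicate 3), -0.001 to 0.19 for TNFRSF10D (without shNC replicate 1 or 3) and -0.010 to 0.245 for TRAF1 (without shMSLN replicate 2 or shNC replicate 2). Leaving TNFSF10 out of the sums, an alternative added after seeing the data, turned the difference of the ratio of anti-apoptotic to pro-apoptotic TPM from -0.031 to 0.0096.

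Replicate numbers are shared between groups, but the labels do not say what they share. Deviations of same-numbered samples correlated with r = 0.197, 0.080 and 0.086 over 14552 genes, and every sample correlated best with its own number, a hint from the data and not the design. With a replicate block, 5789 genes and 21 members were called, 5 higher and 16 lower.

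Depth limits BCL2A1 and TRAF1, with fewer than 50 reads a sample, and 3 samples a group limit all small differences.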
